A study of Drosophila melanogaster with 30 samples.

Results

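The windows described here are the latest replicating 10 kb bins of 3 autosome arms in wing discs of yw females. They were chosen by their yw timing value, taken from 2L between 1 and 21 Mb, 3L between 1 and 23 Mb and 3R between 4 and 31 Mb of the dm6 genome, and are the bins at or below the 10th percentile of these 6900 bins. There were 690 of them, out of 15850 bins in the whole yw table, and they cover 6.9 Mb of 69 Mb searched. The wing disc is the larval epithelium that gives rise to the adult wing. Repli-seq sorts nuclei into S phase and G1 by their DNA content and sequences both. A low log2 ratio of S to G1 coverage (log2 S/G1) marks late replication.

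Cells copy their chromosomes in a largely fixed order, and the regions copied last are usually poor in transcribed genes. In Drosophila, late regions of the arms have been called intercalary heterochromatin, and the protein SuUR is known for slowing replication forks there in polytene chromosomes. Acetylation of histone H4 at lysine 16 goes with open chromatin and with the dosage-compensated male X, and methylation of histone H3 at lysine 9 marks heterochromatin beside the centromeres.

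All groups were wing discs of wandering third-instar larvae. The yw females carry no histone transgene in their label. In the other groups the replication-dependent histone genes were deleted (ΔHisC over ΔHisC), with twi-GAL4 on one deletion chromosome and UAS-2xEYFP on the other, which the controls share too. They were replaced by a transgene from the father, built of 12 copies of a 5 kb histone repeat. It carried wild-type genes (HWT), H4 with arginine in place of lysine 16 (H4K16R) or H3 with arginine in place of lysine 9 (H3K9R). Mutant animals were picked by their EYFP signal, and their mothers carried the deletion over the CyO balancer. HWT and H4K16R were studied in both sexes, H3K9R and yw in females. Each of the 6 timing groups had 2 S-phase and 1 G1 libraries, but the authors deposited 1 value per group and window, so no timing value has a replicate error and no timing difference could be tested. RNA came from HWT and H4K16R of both sexes (3 libraries per group, 12 in all), each a pool of 30 discs.

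The late windows were spread over all 3 arms but not evenly. 3R held 317 of its 2700 bins (11.7%) in 22 runs of adjoining bins, 2L held 225 of 2000 (11.2%) in 14 runs, and 3L held 148 of 2200 (6.73%) in 10 runs. The 46 runs were 40 to 420 kb long, with a median of 140 kb. The 12 longest held 311 of the 690 bins (45.1%), and 12 runs were shorter than 100 kb.

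The yw values that chose the windows ran from -0.22 to -0.083 with a median of -0.11. All arm bins had a median of 0.012 and reached 0.17. The 5 lowest bins lay in 2 places. The 3 adjoining bins at chr3R:4000001-4030000 had yw values of -0.22, -0.22 and -0.20, and form the start of a run that adjoins the pericentromeric part of 3R, whose 400 bins had a median of -0.28. The other pair, at chr2L:17050001-17070000, had -0.20 in both bins. The threshold does not fall in a gap. The 5 bins just inside it had values from -0.0834 to -0.0829 and the 5 just outside from -0.0829 to -0.0828.

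The late state of these windows was also found in each of the 6 profiles that the rule did not use. The same HWT female libraries are counted in both female tables, so counts over all 6 profiles are not counts over 6 separate groups. In the window with the same start, the median over the 690 windows was -0.082 in HWT females and -0.11 in H3K9R females (both in the H3K9R table), against arm medians of 0.061 and 0.058. In the H4K16R tables it was -0.10 in HWT females, -0.14 in H4K16R females, -0.16 in HWT males and -0.15 in H4K16R males, against arm medians of 0.024, 0.024, 0.030 and 0.024. The late windows were thus on the late side of the arm in every genotype and in both sexes. Between 440 and 465 of the 690 (63.8% to 67.4%) also stood in the latest 10% of each other profile, which holds 10% of all arm bins by definition.

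The 2 kinds of window are not aligned. A yw bin is listed as 10 kb wide, but some adjoining bins hold the same value. All bins of the run at chr3L:19370001-19420000 do, for example, so a yw value can reflect more than its 10 kb. The other profiles give 100 kb windows stepped by 10 kb. The yw profile followed those windows best when they started 40 to 50 kb before the bin, that is, when they were centred on it. Pearson's r across arm bins was then 0.85 to 0.91, against 0.77 to 0.83 at the same start, and neighbouring bins are not independent. With centred windows, 546 to 575 of the 690 (79.1% to 83.3%) stood in the latest 10% of each profile, and all 690 were below the arm median in all 6. Of the 690, 438 were in the latest 10% of all 6 profiles and 22 in none, with the HWT female libraries counted in both female tables. Outside the 690, 16 arm bins were in the latest 10% of all 6 profiles. They form 8 stretches, of which 7 adjoin a late run, and the other is chr3R:27810001-27840000.

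**Figure D1:**
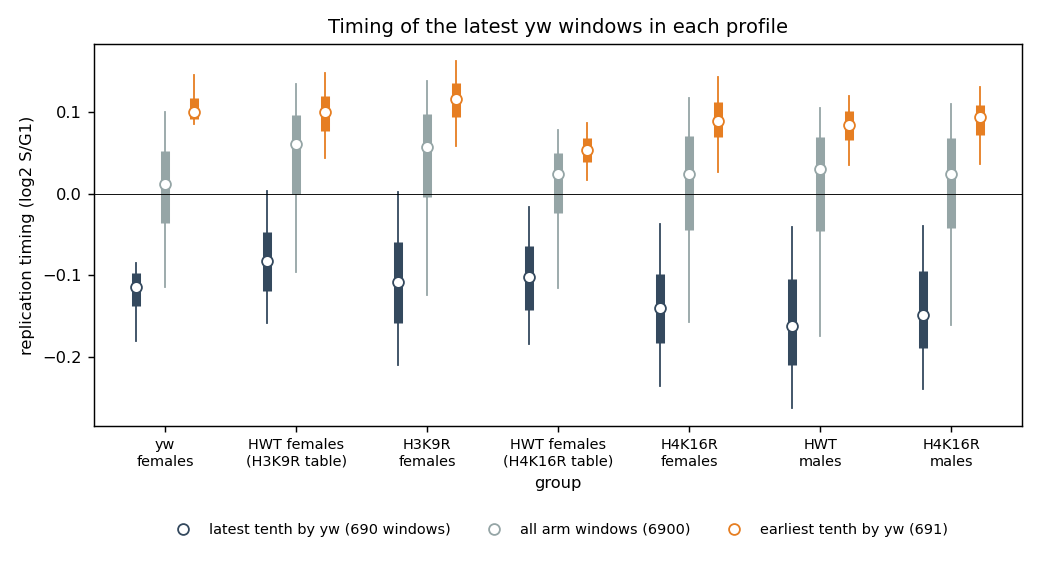
Replication timing (log2 S/G1, vertical axis) of the 690 latest yw windows, all 6900 arm windows and the 691 earliest yw windows in each of 7 profiles (horizontal axis), paired by the same start. Circles are medians, thick bars quartiles and thin bars the 5th to 95th percentiles over windows, not replicate errors; the latest windows have medians between -0.16 and -0.082 in every profile.

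Around the centres of the 46 runs the profiles formed a trough some 200 kb to each side. The lowest medians lay at or beside the centre, as with centred windows, so these depths are not comparable with values at the same start. In the H4K16R female table the HWT median fell from 0.024 at 200 kb before the centre to -0.12 at the centre and was -0.0061 at 200 kb after it. The H4K16R female median went from 0.011 to -0.17 and back to -0.0047, a deeper trough on similar shoulders. In males, HWT had the deeper one, with -0.19 at the centre against -0.18 in H4K16R. In the H3K9R table the centre medians were -0.10 in HWT and -0.13 in H3K9R. The yw trough, on which the runs were chosen, had a centre median of -0.12.

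**Figure D2:**
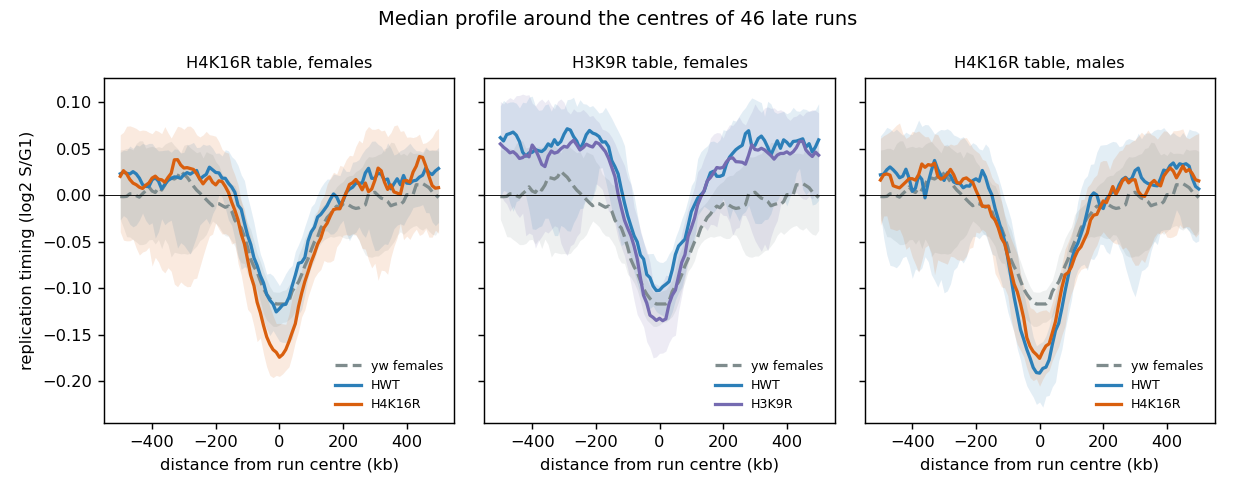
Median timing (log2 S/G1, vertical axis) by distance from the run centre (kb, horizontal axis) over 46 late runs, in 3 tables, with yw in each panel. Shading spans the quartiles over runs. The troughs lie at or beside the run centre, as with centred windows, so depths are not comparable with values at the same start. The H4K16R female trough is deeper than its HWT trough (-0.17 and -0.12), and the male order is the opposite (-0.18 in H4K16R and -0.19 in HWT); scaling each profile by its SD turns the female direction.

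In H4K16R females the late windows were later on the log2 scale than in HWT females of the same table, a direction that turned when each profile was scaled by its SD. The median difference over the 690 windows was -0.037 (quartiles -0.058 and -0.015), against -0.0019 over all arm bins and 0.036 over the 691 earliest yw bins. The difference was below 0 in 607 of the 690 (88.0%), where 52.0% of all arm bins were. Later by 0.1 or more (log2) were 12 windows (1.74%), where 0.333% of arm bins passed, and none was earlier by 0.1, where 0.739% of arm bins were. The whole H4K16R female profile was more spread out, with an SD across arm bins of 0.083 against 0.060 in HWT. With each profile centred and divided by its SD, the late windows had a median difference of 0.14 SD, in the opposite direction, and 0.058 SD over the arms. The median of the late windows' ranks was at the 6.90 percentile of the H4K16R profile and at 6.41 in HWT. The later values in H4K16R females thus came with a wider range of the whole profile. The median change of rank per window was -0.20 percentile points in the late windows, and also -0.20 over all arm bins; the part of that range in the difference was not tested.

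H3K9R females showed a later median too, within their own table. The median difference over the late windows was -0.032, against -0.0051 over the arms and 0.018 over the earliest bins. It was below 0 in 517 windows (74.9%), where 55.8% of arm bins were. Later by 0.1 were 16 windows (2.32%; 0.638% of arm bins), and none was earlier by 0.1 (0.0145% of arm bins). The profile SD was 0.080 in H3K9R and 0.070 in HWT, and the SD-scaled difference kept its direction at -0.13 SD. Ranks changed little, with a median of the late windows at the 6.40 percentile of the H3K9R profile and at 6.50 in HWT. Per window the median change of rank was -0.33 percentile points, against -0.043 over all arm bins. The H4K16R and H3K9R females are compared with the same HWT libraries, so the 2 results are not independent of each other. The HWT female profile itself differs between the tables. Across arm bins the pair correlated at r = 0.985 with SDs of 0.070 and 0.060, and over the late windows the median difference between them was -0.023.

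In H4K16R males the sign was the other way. The median difference from HWT males was 0.014, against 0.0017 over the arms and 0.0090 over the earliest bins. It was below 0 in 214 windows (31.01%), where 47.6% of arm bins were. None was later by 0.1 (0.0870% of arm bins), and 3 were earlier (0.435%; 0.159% of arm bins). The H4K16R male profile was slightly narrower than that of HWT males (SD 0.082 and 0.087). With SD scaling the median was 0.084 SD in the late windows and 0.071 SD over all arm bins. Female and male differences were not tested against each other, since each group has 1 value.

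Taken by run, 44 of 46 run means were below 0 in H4K16R females (-0.096 to 0.025), 35 of 46 in H3K9R females (-0.078 to 0.068) and 13 of 46 in H4K16R males (-0.029 to 0.071). Of all arm bins, 52.0%, 55.8% and 47.6% were below 0 in the same order. The H4K16R female direction turned with SD scaling, to a median of 0.14 SD over the late windows, and runs were not counted on that scale. On the log2 scale, 32 run means were later in H4K16R females and earlier in H4K16R males. With 44 means below 0 in females and 33 above 0 in males, that count is nearly fixed and shows no pairing of the sexes by run. These and the following run means are for windows with the same start unless stated otherwise, and their order changes with centred windows, under which 44, 36 and 9 of the 46 means were below 0. At the same start no run mean reached -0.1; with centred windows the run over beat-IIa and beat-IIb did in H4K16R females (-0.10).

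**Figure D3:**
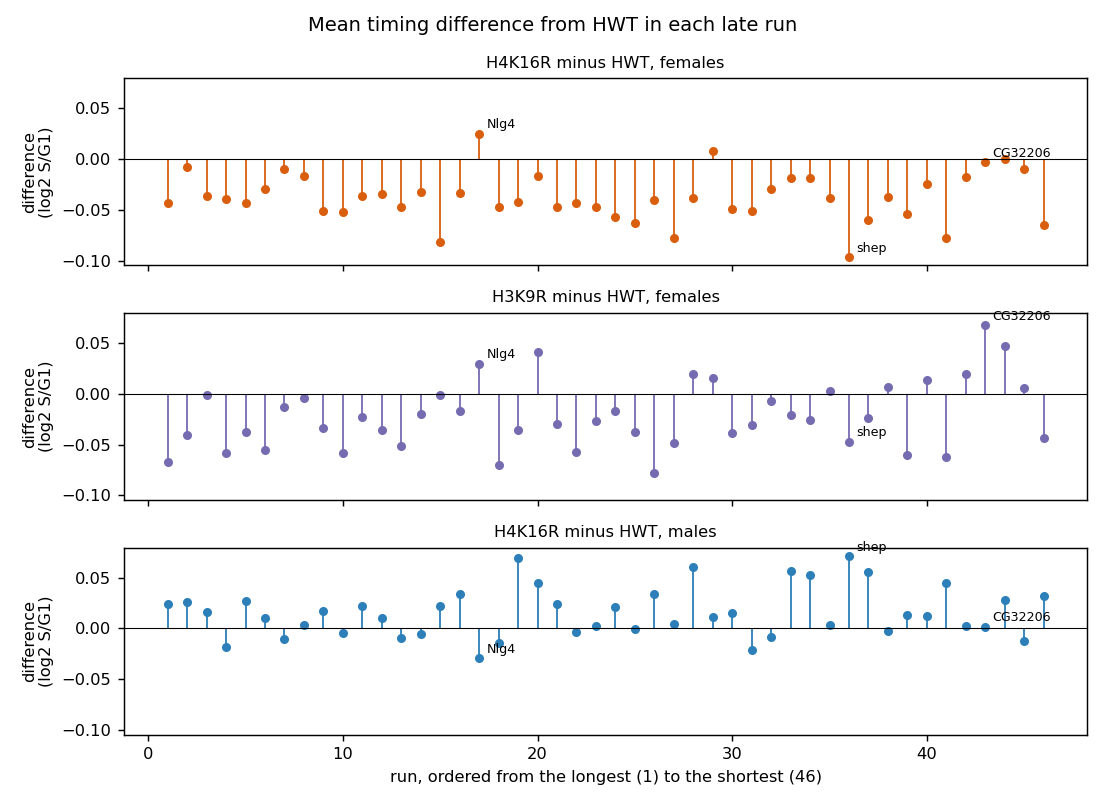
Mean timing difference from HWT (log2 S/G1, vertical axis) in each of the 46 late runs, ordered from the longest to the shortest (horizontal axis), for H4K16R females, H3K9R females and H4K16R males. Means below 0, that is later than HWT, number 44, 35 and 13; with profiles scaled by their SD the median over the late windows of H4K16R females turns to 0.14 SD.

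The run over shep, chr3L:5190001-5280000, stood at both extremes at the same start, but not with centred windows. The gene shep encodes an RNA-binding protein known for its part in neuronal development and behaviour, and it fills nearly the whole run. In females the run mean was -0.047 in HWT and -0.14 in H4K16R, the lowest difference of all runs (-0.096). In males it was -0.14 in HWT and -0.071 in H4K16R, the highest difference of all runs (0.071). With centred windows its differences were -0.073 in females and 0.054 in males; the lowest female one was then that of the beat-IIa and beat-IIb run (-0.10) and the highest male one that of the stol run (0.095). Also with centred windows, none of its 9 bins was in the latest 10% of all 6 profiles.

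The other runs with the lowest H4K16R female means were those over CadN, which encodes N-cadherin (-0.082), over the adhesion genes beat-IIa and beat-IIb (-0.078), over the octopamine receptor genes Octbeta3R and Octbeta2R (-0.078), and over nAChRalpha1, a nicotinic acetylcholine receptor subunit gene (-0.065). In the CadN run, chr2L:17510001-17670000, H4K16R females had -0.20 and HWT females -0.12. The highest were the run over the neuroligin gene Nlg4 (0.025) and that over CG14459 (0.0081), which was -0.011 with centred windows. In the Nlg4 run, chr3R:20100001-20260000, females had -0.14 in HWT and -0.11 in H4K16R, and males -0.14 in HWT and -0.17 in H4K16R, the lowest male difference of all runs at the same start (-0.029). With centred windows it was -0.018, and that of the run at chr2L:20190001-20290000 was the lowest (-0.048). The female difference was 0.0090 with centred windows. The Nlg4 run thus went opposite to the majority in both sexes, but with no replicate error differences of this size cannot be read as a shift.

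In H3K9R females the lowest run means were over dpr11 (-0.078), side (-0.070), beat-Ia to beat-Ic (-0.068), the Octbeta receptors (-0.062) and timeout (-0.060). The dpr11 run, chr3R:6500001-6620000, had -0.028 in HWT and -0.11 in H3K9R. The highest were over CG32206 (0.068), CG34357 (0.047), beat-Va to beat-Vc (0.041), Nlg4 (0.030) and stol (0.020). The CG32206 run at chr3L:19370001-19420000 and the CG34357 run at chr3R:4530001-4580000 had H3K9R means above 0, at 0.027 and 0.011, against -0.040 and -0.036 in HWT. At the same start no other run had a mean above 0 in any profile. With centred windows neither passed 0, at -0.042 and -0.027 in H3K9R. Each is 50 kb long.

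In H4K16R males the highest run means after shep were over kek2 (0.069), stol (0.061), CG42402 at the border of the pericentromeric part of 3R (0.056) and the glutamate receptor gene GluRIB (0.056). The kek2 run, chr2L:11590001-11740000, had -0.21 in HWT and -0.14 in H4K16R males. After Nlg4, the lowest male means were those of the run at chr2L:20190001-20290000 (-0.021), the run over Con (-0.018), the side run (-0.015) and the run at chr3R:15000001-15050000 (-0.012).

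The longest run, chr2L:15800001-16220000, spans 420 kb and 42 bins, of which 22 were in the latest 10% of all 6 profiles with centred windows. It holds beat-Ia, beat-Ib and beat-Ic. The beat genes encode immunoglobulin-domain proteins of neurons, of which beat-Ia is known for steering motor axons to muscle. Run means were -0.15 in yw, -0.082 in HWT and -0.15 in H3K9R females of the H3K9R table, -0.11 and -0.15 in HWT and H4K16R females, and -0.17 and -0.15 in HWT and H4K16R males. Both female mutants were lower than HWT there, and the male mutant was higher.

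The run at chr2L:16910001-17210000 over beat-IIIa, beat-IIIb and part of beat-IIIc was among the latest in all profiles but that of H3K9R females. Its means were -0.16 in yw, -0.15 and -0.19 in HWT and H4K16R females, and -0.23 and -0.22 in HWT and H4K16R males. At the same start these were the lowest male means of all runs. Its H3K9R mean was -0.127, which differed from HWT by -0.0016, and several runs were lower in that profile. The run at chr3R:28010001-28290000 over trv and CG34354 had the lowest HWT female mean of the H4K16R table (-0.16), with -0.20 in H4K16R females, -0.22 in HWT males and -0.19 in H4K16R males. The run at chr3L:9960001-10170000 is mostly the 164710 bases of dpr6. Its same-start mean was the lowest of all runs in H4K16R females (-0.21), H3K9R females (-0.17) and HWT females of the H3K9R table (-0.14).

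Single genes filled several of the long runs. The gene bru3, which encodes an RNA-binding protein of the Bruno family, gave 243400 bases to the 250 kb run at chr3L:13560001-13810000, whose only other annotated genes were a lncRNA and mir-289. The Musashi-family gene Rbp6 gave 128212 bases to a 210 kb run and bru1 123438 bases to a 180 kb run. Con, which encodes the cell adhesion protein Connectin, gave 113243 bases to a 280 kb run. The neuroligin genes Nlg3 and Nlg1, whose products are postsynaptic adhesion proteins, lie in the 310 kb run at chr3R:7530001-7840000. The longest runs also hold Dnah3, a dynein heavy chain gene, klg, an immunoglobulin-domain adhesion gene of the eye, side-II, dpr6, and scrib, an epithelial polarity gene that wing disc cells use.

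The remaining long runs differed in how the genotypes stood to each other. The Nlg3 and Nlg1 run was nearly the same in HWT and H4K16R females (-0.12 and -0.13), and its male means were -0.19 in HWT and -0.17 in H4K16R. The H3K9R table gave it -0.094 in HWT and -0.13 in H3K9R. Of its 31 bins, 27 were in the latest 10% of all 6 profiles with centred windows, so it was late in every group while its H4K16R female difference (-0.0082) was among the smallest.

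The run over Con, chr3L:4770001-5050000, was later in all 3 mutants. Its means were -0.090 and -0.15 in HWT and H3K9R females, -0.11 and -0.15 in HWT and H4K16R females, and -0.17 and -0.19 in HWT and H4K16R males. The klg run, chr3R:22780001-23020000, had lower means in all 3 as well, with differences from -0.013 to -0.0097. With no replicate error, differences of this size cannot be read as a delay. Over the late windows, the HWT female profile differed between its own tables by a median of -0.023. The klg run means were -0.11 and -0.12 in HWT and H3K9R females, -0.13 and -0.14 in HWT and H4K16R females, and -0.14 and -0.15 in HWT and H4K16R males.

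The bru3 run had -0.11 and -0.16 in HWT and H3K9R females, -0.13 and -0.16 in HWT and H4K16R females, and -0.20 and -0.19 in HWT and H4K16R males. The Rbp6 run, chr3L:17110001-17320000, had -0.079 and -0.14, -0.099 and -0.15, and -0.165 and -0.170 in the same order. Both runs were later in both female mutants. The male differences were small, at 0.011 in the bru3 run and -0.0049 in the Rbp6 run, and with no replicate error their signs cannot be read as a shift.

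The side-II run, chr2L:14770001-14970000, had -0.091 and -0.11 in HWT and H3K9R females, -0.12 and -0.15 in HWT and H4K16R females, and -0.18 and -0.16 in HWT and H4K16R males. The run over bru1 and bru2, chr2L:12190001-12370000, had -0.067 and -0.10, -0.090 and -0.13, and -0.15 and -0.14 in the same order. The run over scrib, beat-VII and the Twdl genes, chr3R:26550001-26780000, was the least late of the 12 longest, with -0.057 and -0.060, -0.083 and -0.10, and -0.11 and -0.10. Its differences from HWT lay between -0.017 and 0.0031.

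The run at the border of the pericentromeric part of 3R, chr3R:4000001-4100000, held the lowest yw bins. At the same start it was not the latest in the other female profiles. Its mean was -0.16 in yw, -0.085 and -0.11 in HWT and H3K9R females, -0.084 and -0.10 in HWT and H4K16R females, and -0.22 and -0.17 in HWT and H4K16R males. With centred windows the means were -0.14 and -0.12, -0.15 and -0.18, and -0.28 and -0.24 in the same order. Those of HWT females in the H3K9R table and of both male groups were then the lowest of all runs. Windows of 100 kb that start in this run reach away from the centromere, beyond the listed 100 kb of the run. Leaving this run out of the 690 windows moved no timing median or share given here past the limits used for other settings.

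The late windows held fewer genes per Mb than the arms, with a larger share of both long and short coding genes. Genes were placed by their midpoint on RefSeq Release 6. There were 559 genes, of which 368 protein-coding, or 53.3 coding genes per Mb against 119 over all arm bins and 118 in the earliest bins. No gene midpoint fell in 350 of the 690 bins (50.7%), against 33.1% of all arm bins. Coding genes of 30 kb or more were 45 of 368 (12.2%) in the late windows and 370 of 8207 (4.51%) over the arms. Of the same 368, 92 (25.0%) were 1 kb or less, against 19.4%, and the median coding length was 1716 bases against 2079. Genes for lncRNAs and antisense RNAs were as dense in the late windows (24.2 per Mb) as over the arms (22.8 per Mb). None of 120 snoRNA genes lay in them, and 13 of 135 miRNA genes did.

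Of 10 gene lists, the neuronal surface pairing genes stood out by count. These are the beat and side families and the dpr and DIP families, immunoglobulin-domain proteins that bind each other in pairs on neurons and their targets. Of 40 in the arm bins, 20 (50.0%) lay in late windows, against 4.48% of all coding genes: 10 of 14 beat, 4 of 6 side, 5 of 12 dpr and 1 of 8 DIP genes. Many are long. Among coding genes of 30 kb or more, 16 of 23 pairing genes (69.6%) and 29 of 347 others (8.36%) were in late windows. The 20 pairing genes elsewhere in the arms lay between the 10.99 and the 93.2 percentile of the yw profile, with a median of 24.3, so most of these were on the late side too.

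The pairing genes differed in how far their lateness was shared. In the bin of its midpoint, beat-Ia had -0.18 in yw, -0.16 and -0.25 in HWT and H3K9R females of the H3K9R table, -0.18 and -0.25 in HWT and H4K16R females, and -0.26 and -0.23 in HWT and H4K16R males. It was in the latest 10% of all 6 other profiles at the same start. Its neighbour beat-Ib, at -0.15 in yw, had -0.036 and -0.12 in the H3K9R table, -0.063 and -0.10 in HWT and H4K16R females, and -0.11 in both male groups, and was in the latest 10% of 1 of the 6. In all, 16 of the 20 were in the latest 10% of all 6. The earliest pairing gene was dpr16, with 0.095 in yw and values from 0.048 to 0.13 in the other profiles.

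The other lists are read against the share of all arm genes whose midpoint lies in late windows, which was 5.38% of all genes, 4.48% of coding genes and 10.6% of lncRNA and antisense genes. Chemosensory receptor and odorant-binding genes numbered 16 of 135 (11.9%), among them the clusters Gr22a to Gr22e and Gr36a to Gr36c, gustatory receptor genes. Genes matched as cuticle genes numbered 14 of 98 (14.3%). Of these, 13 are Twdl genes, which encode Tweedle cuticle proteins, and 12 of the 13 stand side by side at chr3R:26619118-26641054. The other, Acp33A, is an accessory gland gene matched by its letters only. The 167 lncRNA and antisense genes were 10.7% of 1567. There were 1 of 96 ribosomal protein genes (RpL10Aa) and 2 of 166 tRNA genes. The 2 of 28 proteasome genes, Prosbeta5R2 and Rpt6R, are both named as relatives of a proteasome subunit. None of 20 serine protease genes and none of the 8 homeotic genes lay in late windows. The homeotic genes, which set segment identity, ranged from abd-A at the 13.8 percentile of yw over Ubx at 24.2 to Antp at 95.6. None of the 3 genes for late replication and heterochromatin factors in the arm bins did either, with SuUR itself at the 95.7 percentile.

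**Figure D4:**
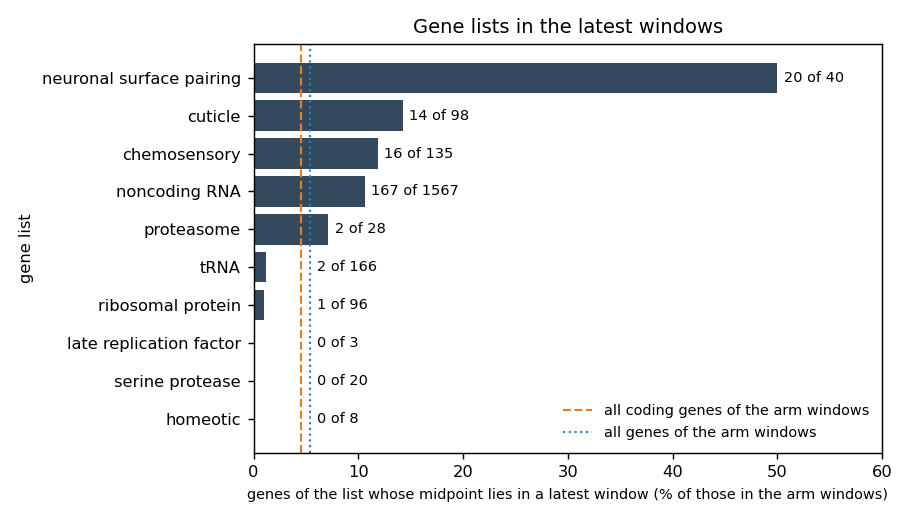
Share of each gene list whose midpoint lies in a late window (percent of its genes in the arm bins, horizontal axis) for 10 lists (vertical axis), with counts beside the bars. The dashed line is the share of all coding genes of the arm bins (4.48%) and the dotted line that of all their genes (5.38%); neuronal surface pairing genes stand at 50.0%.

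Few genes of the late windows were measured as RNA in these discs. The authors' deposited tables list intervals with a log2 fold change and adjusted p-value for H4K16R against HWT, and give no level. Of 6019 female entries in the arm bins 113 (1.88%) had their midpoint in a late window, and of 6461 male entries 136 (2.10%), or 16.4 and 19.7 entries per Mb against 87.2 and 93.6 over the arms. A female entry existed for 101 of the 368 coding genes (27.4%), against 60.7% over the arms. None of the 16 chemosensory genes had an entry in either sex, where 26 of 135 in the arm bins had a female and 33 a male one. Only TwdlM of the 13 Twdl genes had one, in females. Cuticle genes in the arm bins had 26 female and 30 male entries for 98 genes. Of the 167 noncoding genes, 3 had a female and 7 a male entry, against 301 and 322 of 1567 over the arms.

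In females, H4K16R and HWT RNA of the late windows differed in 1 of 113 entries by the authors' deposited table: none was higher at an adjusted p under 0.05 (0.382% of arm entries and 0.362% of all entries were) and 1 was lower (0.885%; 0.548% of arm entries and 0.613% of all). That entry is alpha-Est3, a carboxylesterase gene of the alpha-esterase cluster in the Nlg3 run, with a log2 fold change of -1.61 and an adjusted p of 0.021 from edgeR. For males, the authors' deposited table gives it a log2 fold change of -1.49 (adjusted p = 0.010, edgeR). It is thus lower in H4K16R in both sexes. In a bulk sample, fewer cells of a type and less RNA per cell cannot be told apart.

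In males, the authors' deposited table had 10 of 136 entries higher (7.35%; 5.57% of arm entries and 5.35% of all) and 7 lower (5.15%; 3.08% of arm entries and 10.3% of all). By the authors' deposited table, the log2 fold change had a median of 0.31 over the late windows and 0.077 over the arms, and 93 of 136 entries (68.4%) were above 0 against 61.0%. Fold changes were also larger in either direction. The median absolute value in the authors' deposited table was 0.60 against 0.21 in males, and 0.35 against 0.16 in females, where no more than 1 entry passed. The median adjusted p (edgeR) was not lower, at 0.562 against 0.543 in males and 0.840 against 0.835 in females. RNA levels are not given, so the part of low counts in these larger fold changes was not tested.

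The male entries that rose include adhesion genes. The authors' deposited table for males gives log2 fold changes of 2.28 for side-II (adjusted p = 0.012, edgeR), 1.03 for side (adjusted p = 0.0021) and 0.47 for Con (adjusted p = 0.031). The authors' deposited table for females gives 0.69 for side-II (adjusted p = 0.85, edgeR), 0.74 for side (adjusted p = 0.20) and 0.76 for Con (adjusted p = 0.10). The caspase gene Dronc rose by 0.63 in the authors' deposited table for males (adjusted p = 5.83e-04, edgeR), and an entry inside it and one over CG42455 and vnc rose by 0.59 and 0.34. The mitochondrial protease gene Afg3l2 rose by 0.83 (adjusted p = 5.58e-06) and CG2017 by 1.15 (adjusted p = 3.86e-06), as the authors' deposited table for males lists them; both were below 0 in the one for females, at -0.19 and -0.31, and did not pass there. CG4702 rose by 1.67 and lncRNA:CR46061 by 6.02 in the authors' deposited table for males, with adjusted p of 0.049 and 0.035. The sexes were not tested against each other for any of these genes.

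Apart from alpha-Est3, those that fell in males did so by 0.24 to 0.76 on the log2 scale. In the authors' deposited table for males 2mit fell by 0.76 (adjusted p = 0.0049, edgeR) and timeout, a relative of the clock gene timeless, by 0.35 (adjusted p = 0.027). The entry of 2mit lies inside timeout, so their reads cannot be told apart here. CG13807 fell by 0.52, CG6685 by 0.45, tmod, which encodes the actin-capping protein tropomodulin, by 0.24 and shep by 0.24 (adjusted p = 0.020, edgeR), all by the authors' deposited table for males. For shep the table for females, also the authors' deposited table, has 0.066 with an adjusted p of 0.85.

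Male fold changes of the pairing genes were mostly above 0, in the late windows and elsewhere. Of 20 in late windows, 19 were above 0 in the authors' deposited table for males (median 0.94), but only side and side-II passed. Of 18 with an entry elsewhere in the arms, 15 were above 0 (median 0.84) in the authors' deposited table, 1 passed as higher and 1 as lower. Among all male arm entries, 61.0% were above 0, 5.57% passed as higher and 3.08% as lower. In the authors' deposited table for females 7 of 17 in late windows were above 0 (median -0.36) and none passed (lowest adjusted p = 0.20, edgeR). Elsewhere in the arms 8 of 16 were above 0 in the authors' deposited table for females (median -0.012), and none passed. Among all female arm entries, 49.6% were above 0. The difference between the medians inside and outside the late windows was not tested.

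**Figure D5:**
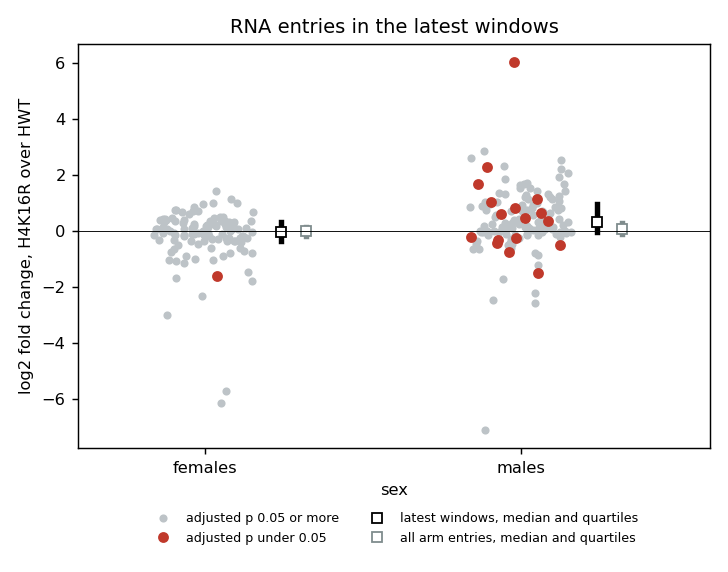
Log2 fold change of H4K16R over HWT (vertical axis, the authors' values) for the 113 female and 136 male entries in late windows (horizontal axis, sex). Red points have an adjusted p under 0.05 (1 in females, 17 in males); squares with bars are medians and quartiles over entries, 0.31 in the late windows of males against 0.077 over all arm entries.

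Markers of the tissue and of other cell types were looked up in the tables, which give no level. Over all entries, 10.3% of male and 0.613% of female ones were called lower, and 5.35% and 0.362% higher. Among male arm entries 3.08% were lower. The marker counts were not split by chromosome. All 10 wing disc markers had an entry in both sexes; of these, 3 were lower in H4K16R males by the authors' deposited table (median log2 fold change over the 10 -0.088) and none was called in females (0.071). Of 7 fat body markers 6 had one, and in the authors' deposited table for males all 6 were lower in H4K16R (median log2 fold change -2.62; in females -0.88, none called). The 4 salivary gland markers with an entry had a median log2 fold change of -3.04 by the authors' deposited table for males, none called. Of the hemocyte markers, 1 of 4 with an entry was lower in females (median -0.34 by the authors' deposited table) and none of 5 was called in males (-0.85). None of 5 muscle precursor or 3 tracheal markers with an entry was called in either sex. Of 4 neuron markers, 1 was higher and 1 lower in males, and the median was 0.31 by the authors' deposited table. None of the markers lies in a late window, and their part in the RNA differences of the late windows was not tested.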

How the data were processed

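Libraries were grouped by sample titles. Per the labels, timing groups had 2 S-phase and 1 G1 libraries and RNA groups 3; the labels do not name separate crosses, so p-values measure only the spread between these libraries. Build dm6 and the tools Bowtie2 2.3.2, TopHat, SAMtools 1.6, Cufflinks 2.2.1, bedtools, limma and edgeR are in the submitters' processing notes, with no role stated. No source used here gives read depth per library. The authors deposited timing as 1 value per group: a linear S/G1 ratio in the H4K16R female table, of which log2 was taken here, and values read as log2 elsewhere (the base is not stated). Per the file headers, the RNA tables hold the authors' deposited log2 fold changes and adjusted p-values; H4K16R was taken as the numerator, which no header names. The planned per-library fits were replaced by these values.

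Each late window was followed at the same start, with centred windows as the alternative. A difference of 0.1 was counted as shifted. Shares of windows, genes or entries have no test. RNA entries were named by reciprocal overlap above 0.9 with RefSeq Release 6 genes (9349 of 10775 female and 9572 of 11505 male entries). Entries that overlap share reads. Named genes are the called ones, those with at least 30 kb inside the 12 longest runs, list members, the bins at the threshold and the 5 extreme runs per comparison. The windows, lists and this rule were chosen with earlier results of these data known. The steps were tested on simulated data. The software was Python 3.11.15 with pandas 2.3.3, numpy 2.4.6, matplotlib 3.10.9 and scipy 1.17.1.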

Additional observations from a re-analysis of the deposited data

Results flagged for a closer look

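The H4K16R minus HWT timing difference had opposite signs in the sexes over the late windows, with a median of -0.037 in females and 0.014 in males. Each group has 1 value per window, so the difference between the sexes was not tested. The female table holds a linear ratio and the male table log values, and the whole H4K16R profile was wider than HWT in females (SD ratio 1.40) and narrower in males (0.937). In SD units both medians were above 0, at 0.14 and 0.084.

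The run over shep, chr3L:5190001-5280000, had the lowest female mean (-0.096) and the highest male mean (0.071) of the 46 runs at the same start, also without a test. With centred windows it was -0.073 in females and 0.054 in males, and other runs were lower and higher. It was chosen after its values were seen.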

How the results depend on the processing

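Of 207 values from other settings over 24 results, 149 stayed close, 57 moved and 1 reversed. A share was called close when it fell inside the 95% binomial interval of the main share. That interval counts windows, genes or entries as independent, which neighbours are not, so the label is a yardstick and not a test. Medians and densities were called close within a fixed ratio of the main value, and values in SD by direction only. Scaling by SD was added after the data were seen, as was leaving out the run at the edge of 3R, which moved nothing. The share of late windows in the latest 10% is given in the order HWT (H3K9R table), H3K9R, HWT (H4K16R table) and H4K16R females, HWT and H4K16R males. With a 5th percentile it was 83.2%, 85.2%, 83.5%, 80.0%, 82.6% and 83.8%. With a 20th percentile it was 42.9%, 44.3%, 43.0%, 44.0%, 44.5% and 43.9%. Without 3L it was 57.2%, 60.5%, 57.4%, 58.9%, 60.9% and 59.96%. Without 3R it was 70.5%, 72.1%, 69.4%, 71.0%, 71.3% and 74.8%. With centred windows it was 79.1%, 81.6%, 80.6%, 81.6%, 83.3% and 80.9%. At 5% and 20% the windows were still set against the latest 10%, so those shares change by construction.

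The H4K16R female median became 0.14 SD after scaling by SD. The H3K9R median was -0.020 with a 20th percentile. With a difference of 0.05, later windows were 34.5% in H4K16R females, 29.7% in H3K9R females and 1.45% in H4K16R males, and earlier ones 2.46% in H3K9R females and 12.0% in H4K16R males. With 0.2, or 1 value per run, the later shares of both female comparisons and the earlier share of males were 0%. The male earlier share was also 0% with a 5th percentile and without 2L.

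The female RNA share lower was 0% at an adjusted p under 0.01 and with a 5th percentile. The female RNA median was -0.071 for entries wholly inside, -0.011 for any overlap, -0.011 with a 5th and -0.011 with a 20th percentile. At an adjusted p under 0.01 the male shares were 2.94% higher and 0.735% lower; the lower share was 0.735% with a log2 fold change of at least 1 and 0% with a 5th percentile. The male median was 0.75 with a 5th and 0.11 with a 20th percentile. Pairing genes in late windows were 32.5% with a 5th percentile. The cause of these changes was not tested.

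No paired analysis was possible because the files hold 1 value per group or comparison, and leaving out each replicate was not run for the same reason. Depth per library is unknown.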
